A study of Mus musculus with 7 samples.

Results

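The mouse fatty acid elongases (Elovl1 to Elovl7) and front-end desaturases (Fads1 to Fads3) were followed in the duodenum of mice given the liver X receptor (LXR) agonist T0901317 (T09) or vehicle. The members were the rows of the deposited gene table that carried these gene names, 10 of 47069 rows, 7 of them Elovl and 3 of them Fads genes. Of the 10, 7 had enough counts to be tested, 4 Elovl and 3 Fads genes, and the other 3 (Elovl2, Elovl3 and Elovl4) were near or at 0 in every library. Of the 7 tested, 1 changed with T09, against 4.31% of the 14250 genes tested in the whole table. Elovl5 rose 1.79-fold, with every T09 library above every vehicle library, and the remaining 6 did not pass the test. Groups did not overlap for 16.8% of all genes tested.

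ELOVL enzymes add a pair of carbons from malonyl-CoA to a fatty acyl-CoA in the endoplasmic reticulum, and each prefers acyl chains of a certain length and saturation. FADS enzymes place new double bonds between existing ones and the carboxyl end, drawing electrons from cytochrome b5. Taken in turn, FADS2, ELOVL5, FADS1 and again ELOVL enzymes turn the dietary essential fatty acids linoleate and alpha-linolenate into arachidonate, eicosapentaenoate and docosahexaenoate. In the gut, such polyunsaturated chains are built into membrane phospholipids and into the phospholipid coat of chylomicrons. LXR is a nuclear receptor for oxysterols that induces Srebf1, the gene of the lipogenic factor SREBP-1, and textbook SREBP-1 targets in liver include Elovl5, Elovl6, Fads1 and Fads2.

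RNA from the duodenum of male C57BL/6 mice (C57BL/6J in the series text), aged 8 to 12 weeks, was sequenced as 1 library per mouse. The vehicle group (0.5% carboxymethylcellulose) had 4 mice and the T09 group, dosed at 50 mg/kg/day, had 3; the labels give neither route nor duration, and name no genetic alteration. Counts per library ranged from 15395535 to 20494485. Enterocyte markers took 4.74% to 5.17% of counts in every library, taken as a sum. Of the 12, Fabp1 (1.84-fold) and Fabp2 (1.76-fold) rose and 0 fell by the edgeR test. Of those not called, Vil1, Lct, Epcam and Krt20 were lower in every T09 library than in any vehicle library, and Apob was higher. Over all genes tested, 1.44% were called higher and 2.87% lower by that test, and groups did not overlap for 16.8%. Of the smooth muscle list, 8 of 8 genes were called lower with T09 by edgeR, against the 2.87% of all genes. Their summed share was 0.0864% to 0.152% with vehicle and 0.0181% to 0.0362% with T09. Of the enteric neuron and glia list, 4 of 7 tested genes were called lower by edgeR (summed share 0.00119% to 0.00195% with vehicle against 3.46e-04% to 4.10e-04% with T09). The adipocyte list took 0.0169% to 0.0431% with vehicle and 0.011% to 0.0155% with T09, without overlap, though 0 of its 6 tested genes were called. Cidec, at 2894 to 3748 counts with vehicle and 1842 to 3019 with T09, made up most of this share except in vehicle replicate 4. Of the tested genes, Adipoq, Cfd and Fabp4 overlapped between the groups, while Cidec, Plin1 and Plin4 did not. Vehicle replicate 4 was the highest library for this list, with 479 counts of the defining gene Adipoq against at most 31 elsewhere. Pancreatic acinar genes took 0.078% in vehicle replicate 1 and at most 0.0014% elsewhere. The B and plasma cell share was 0.503% in T09 replicate 1 against at most 0.232% elsewhere, the macrophage share 0.0112% there against at most 0.00523%, and the endothelial share 0.00331% there against at most 0.00128%. Goblet (0.320% to 0.687%), fibroblast (0.00268% to 0.0134%) and liver markers (2.42e-04% to 4.93e-04%) overlapped between the groups. In bulk tissue, fewer cells of a type and less RNA per cell cannot be told apart.

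Elovl5 encodes the elongase of polyunsaturated chains, acting on the products of FADS2 and, further along, of FADS1. It lies on the plus strand of chromosome 9 at 77917364 to 77984519 (GRCm38), and no other gene of the table overlaps it. Its upstream sequence is shown beside that of Elovl6, the elongase that extends palmitate to stearate, because both are textbook SREBP-1 targets and only Elovl5 passed the test here. The stretches are from RefSeq (GRCm38.p6), plus strand, and end just before the gene start listed in the deposited table. Elovl5 covers chr9:77917115-77917363 and Elovl6 chr3:129532136-129532354. Capitals mark the motifs found among 7 searched on both strands.
Elovl5: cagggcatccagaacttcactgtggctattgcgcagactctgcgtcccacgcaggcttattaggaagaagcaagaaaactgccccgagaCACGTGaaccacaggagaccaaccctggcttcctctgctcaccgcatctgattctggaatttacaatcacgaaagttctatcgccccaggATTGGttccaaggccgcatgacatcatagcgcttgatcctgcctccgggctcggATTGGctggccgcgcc
Elovl6: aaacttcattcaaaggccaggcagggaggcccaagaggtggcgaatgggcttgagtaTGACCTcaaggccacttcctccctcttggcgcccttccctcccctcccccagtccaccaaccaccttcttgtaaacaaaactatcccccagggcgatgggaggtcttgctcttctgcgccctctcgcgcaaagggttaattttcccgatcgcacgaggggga

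In Elovl5 the capitals are a CACGTG E-box at positions -161 to -156 from the RefSeq start and a pair of CCAAT boxes on the opposite strand, read as ATTGG, at -71 to -67 and -17 to -13. In Elovl6 they are an AGGTCA nuclear receptor half-site on the opposite strand at -193 to -188. Windows of 250 bases were available for 8 of the 10 members, in 10 windows. Over all 32851 RefSeq windows of that length, 6.02% held CACGTG, 33.8% CCAAT, 14% AGGTCA and 32.7% the GC box GGGCGG. Among the members, CACGTG stood in the window of Elovl5 only, CCAAT in those of Elovl1, Elovl5 and Fads3, AGGTCA in those of Elovl1 and Elovl6, and GGGCGG in those of Elovl1, Elovl2, Elovl4, Elovl7, Fads2 and Fads3. The LXR element, searched as AGGTCA repeated after a gap of 4 bases (0.0152% of windows), the PPAR element, AGGTCA repeated after 1 base (0.0335%) and the sterol regulatory element TCACNCCAC (1.05%) were not found in any member window. That says only that these letters are not in these stretches.

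With vehicle, Elovl5 was at 16.6, 16.1, 14.3 and 17.9 CPM (counts scaled to a common library size, with TMM factors) in replicates 1 to 4. With T09 it was at 30.4, 28.4 and 28.65 CPM in replicates 1 to 3. The lowest T09 library stood well above the highest vehicle library, and the spread within each group was small, at 16.2 ± 1.48 CPM (SD, n = 4) and 29.1 ± 1.085 CPM (SD, n = 3). The log2 fold change was 0.84 (SE 0.11, 95% interval 0.59 to 1.10, edgeR quasi-likelihood test, adjusted p 0.00525 over all genes). Its unadjusted p ranked 86 among 14250 genes tested. In that test 4.31% of all genes were called (1.44% higher and 2.87% lower), against 1 of the 7 members tested, and 1 member is too few to set the family apart from that background. With DESeq2 7.66% of all genes were called, with limma-voom 3.73% and with the replicate block 2.04%, and among the members Elovl5 alone each time. Groups did not overlap for 16.8% of all genes tested, and for 2 of the 7 members, Elovl5 and Fads1. Elovl5 was called in all 14 alternatives, with log2 fold changes of 0.79 to 0.90 and adjusted p of 5.59e-08 to 0.0234. The smooth muscle share moved with treatment too, as given above, and its part in the Elovl5 result was not tested.

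**Figure D1:**
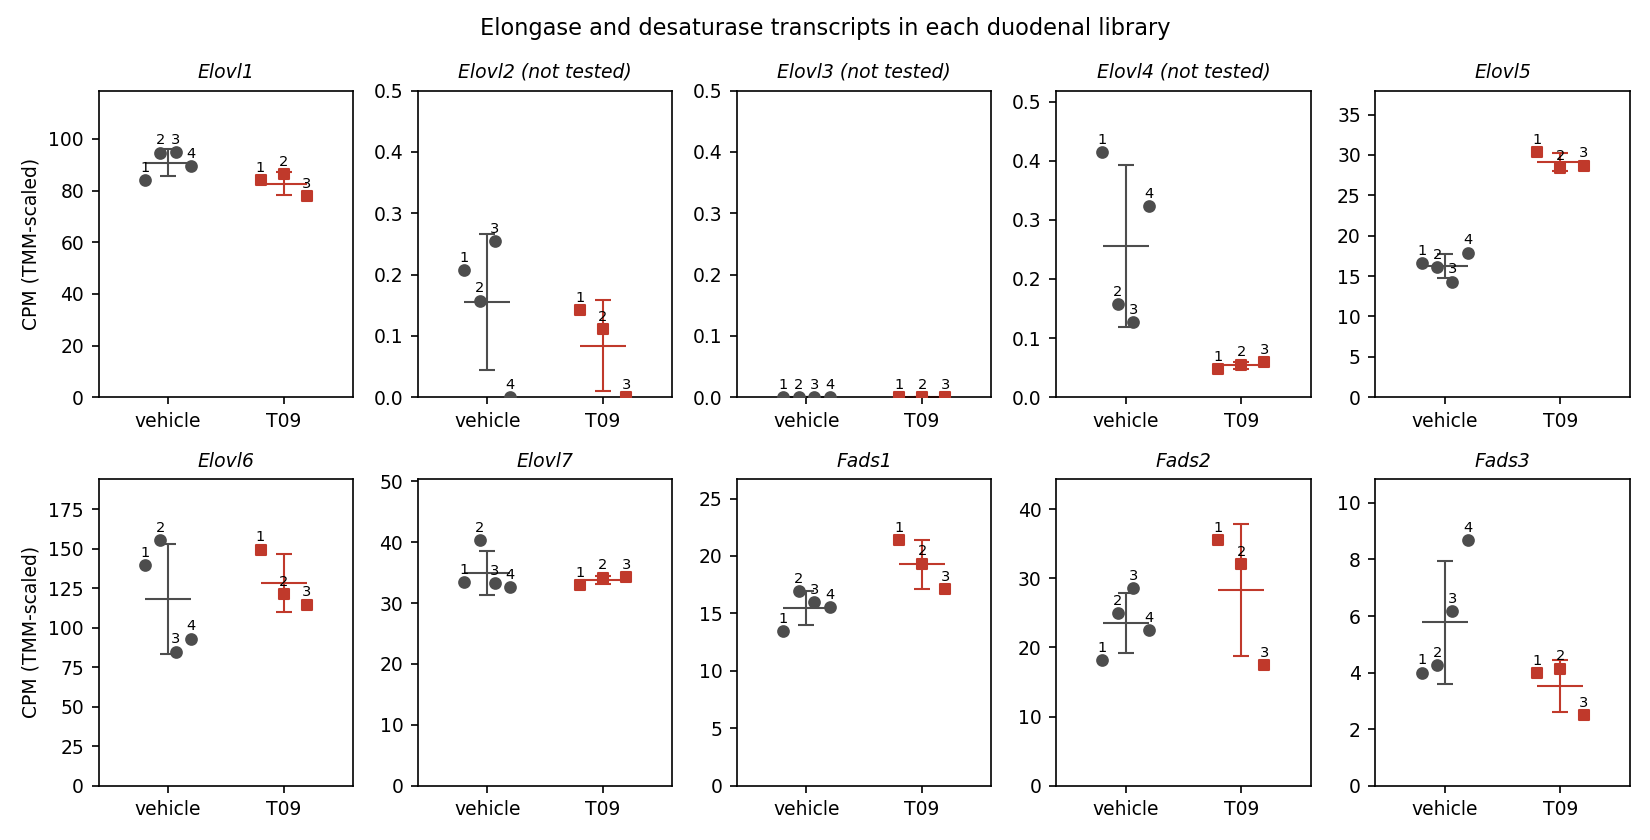
CPM (y axis, linear from 0) of the 10 members in each library, grouped by treatment on the x axis. Points are libraries numbered by replicate, horizontal bars the group mean and whiskers 1 SD (vehicle n = 4, T09 n = 3). For Elovl5 the T09 libraries at 28.4 to 30.4 CPM all lie above the vehicle libraries at 14.3 to 17.9, and for Elovl3 all libraries lie at 0.

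The genes most like Elovl5 in pattern were sought by the root mean square difference of centred log2 CPM over the 7 libraries, among 12810 other genes averaging 1 CPM or more. The nearest was Lpcat3, at a difference of 0.07 log2 units. Lpcat3 encodes the acyltransferase that puts polyunsaturated chains into lysophospholipids, and is a textbook LXR target. It was at 312 to 349 CPM with vehicle and 538.5 to 586 CPM with T09 (log2 fold change 0.81, SE 0.09, edgeR adjusted p 0.00289). Because the search picks genes of like pattern, the near-equal fold changes of Elovl5 and Lpcat3 follow from it and are no separate result. Next came Aldh1a7, an aldehyde dehydrogenase, at a difference of 0.11 (51.4 ± 6.09 to 91.4 ± 6.92 CPM, log2 fold change 0.83, SE 0.11, edgeR adjusted p 0.00525). Its close relative Aldh1a1 could share reads with it, which leaves the single value uncertain. Frrs1, a ferric reductase gene, was at 0.12 (17.6 ± 0.782 to 27.8 ± 1.06 CPM, log2 fold change 0.66, SE 0.10, edgeR adjusted p 0.00837). These likenesses are a description over 7 libraries in which the treatment difference takes most of the range.

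**Figure D2:**
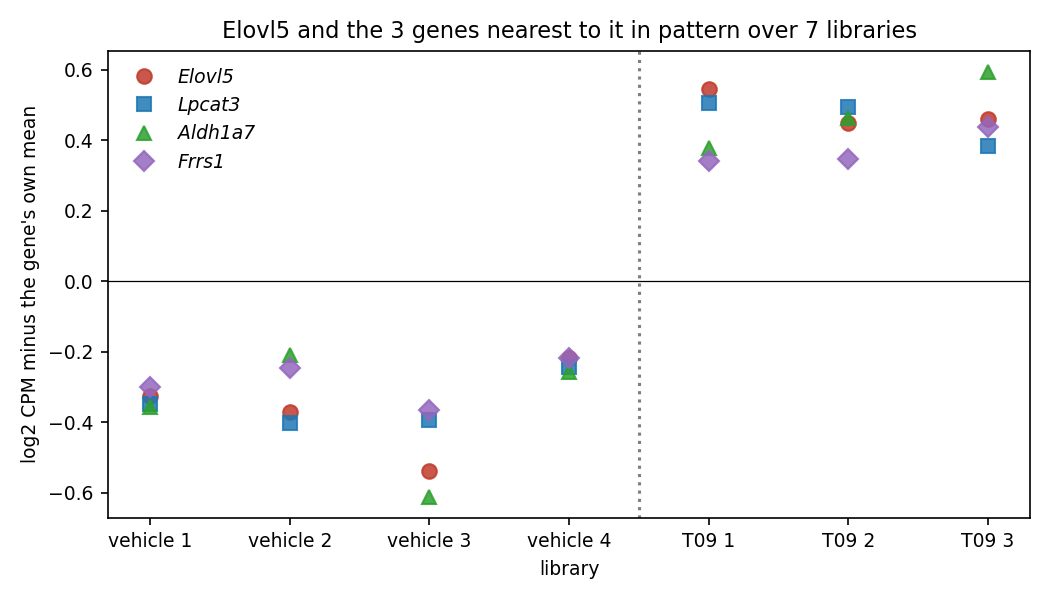
Log2 CPM of Elovl5 and its 3 nearest genes (Lpcat3, Aldh1a7, Frrs1), each minus its own mean over the libraries (y axis), by library (x axis); the dotted line parts vehicle from T09. All 4 genes lie below their mean in every vehicle library and above it in every T09 library, and Lpcat3 differs from Elovl5 by 0.07 log2 units on root mean square.

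Elovl6 makes stearate, the substrate of the stearoyl-CoA desaturases. It was at 139.5, 155, 84.7 and 93.1 CPM in the vehicle replicates and at 149, 121 and 115 CPM in the T09 replicates. The vehicle libraries fell apart into a higher and a lower pair, and all T09 values lay between the lowest and the highest of them. The log2 fold change was 0.12 (SE 0.21, 95% interval -0.36 to 0.59, edgeR adjusted p 0.825). Its sign rested on single libraries, being -0.01 without vehicle replicate 3 and -6e-04 without T09 replicate 1. The Elovl5 estimate lies above this interval, but the 95% intervals of the genes overlap (Elovl5 from 0.5878, Elovl6 up to 0.5935). The difference between the genes is tested with the ratios below. An unnamed gene on the same strand shares 1671 bases with Elovl6 and had at most 1 count in any library. How reads in that stretch were assigned is not known, so the level of Elovl6 per length is uncertain.

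Elovl1 serves saturated and monounsaturated very long chains for sphingolipids. Its vehicle values were 84.1, 94.7, 95.0 and 89.5 CPM, and its T09 values 83.9, 86.3 and 77.8 CPM. The groups overlapped, with a log2 fold change of -0.14 (SE 0.09, 95% interval -0.33 to 0.06, edgeR adjusted p 0.473), and a rise as large as that of Elovl5 lies outside this interval. The last 53 bases of Elovl1 overlap Cdc20 on the opposite strand, which held 257 to 550 counts against 1314 to 1805 for Elovl1, so reads in that stretch are uncertain.

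Elovl7, an elongase of saturated and polyunsaturated very long chains, was at 33.4, 40.3, 33.2 and 32.7 CPM with vehicle and 33.0, 34.2 and 34.2 CPM with T09. Apart from vehicle replicate 2 the libraries lay within a narrow band. The log2 fold change was -0.05 (SE 0.11, 95% interval -0.29 to 0.19, edgeR adjusted p 0.869), with an interval that excludes the Elovl5 value. Without vehicle replicate 2 it was 0.03.

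Elovl4 makes the ultra-long chains of retina, skin and sperm. It had 8, 3, 2 and 6 counts with vehicle and 1, 1 and 1 with T09, so the groups did not overlap at counts too low for the test. Pooled over libraries and scaled for depth, the T09 to vehicle ratio was 0.204 (exact 95% interval 0.0387 to 0.694, which covers counting error only). Elovl2, the elongase of the late steps towards docosahexaenoate, had 4, 3, 4 and 0 counts with vehicle and 3, 2 and 0 with T09 (ratio 0.588, interval 0.160 to 1.84). Elovl3, an elongase best known from brown fat, skin and liver, had 0 counts in all 7 libraries. A count of 0 allows up to 3 counts, which is 0.142 to 0.191 CPM per library. It was at 0 also in vehicle replicate 4, the library with the most adipocyte reads.

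The Fads genes lie side by side on chromosome 19, with no other gene of the table between them. Fads3 ends 4492 bases before Fads2, and Fads2 ends 81384 bases before Fads1. Fads2 encodes the desaturase of the first, rate-limiting step from linoleate. It was at 18.2, 25.0, 28.6 and 22.5 CPM with vehicle and 35.5, 32.0 and 17.5 CPM with T09. T09 replicates 1 and 2 exceeded every vehicle library, and T09 replicate 3 was below all of them. The log2 fold change was 0.27 (SE 0.24, 95% interval -0.27 to 0.81, edgeR adjusted p 0.617). It was 0.52 without T09 replicate 3 and 0.08 without T09 replicate 1, and was not called in either case (edgeR adjusted p 0.237 to 0.894 over the 14 alternatives).

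Fads1 encodes the desaturase of the last step to arachidonate and eicosapentaenoate. Its vehicle values were 13.4, 16.95, 16.0 and 15.6 CPM, and its T09 values 21.4, 19.3 and 17.1 CPM. The groups did not overlap, but only just, since T09 replicate 3 lay next to vehicle replicate 2. The log2 fold change was 0.32 (SE 0.13, 95% interval 0.02 to 0.62), with an unadjusted p of 0.0406 and an edgeR adjusted p of 0.254, which did not pass.

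Fads3, a desaturase of sphingoid bases and trans-vaccenate, had the opposite sign. It was at 3.99, 4.25, 6.17 and 8.68 CPM with vehicle and 3.97, 4.14 and 2.49 CPM with T09, and the groups overlapped. The log2 fold change was -0.70 (SE 0.32, 95% interval -1.43 to 0.02, edgeR adjusted p 0.290). The highest value stood in vehicle replicate 4, where adipocyte markers were also highest. The smooth muscle share was lower in all T09 libraries, as was the adipocyte share, which was mostly Cidec outside vehicle replicate 4. Without that library the log2 fold change was -0.44, and under the replicate block -0.43. These are not separate checks, since vehicle replicate 4 has no same-numbered T09 library and adds nothing to the block's treatment estimate. The part of adipocyte or smooth muscle RNA in the Fads3 values was not tested.

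**Figure D3:**
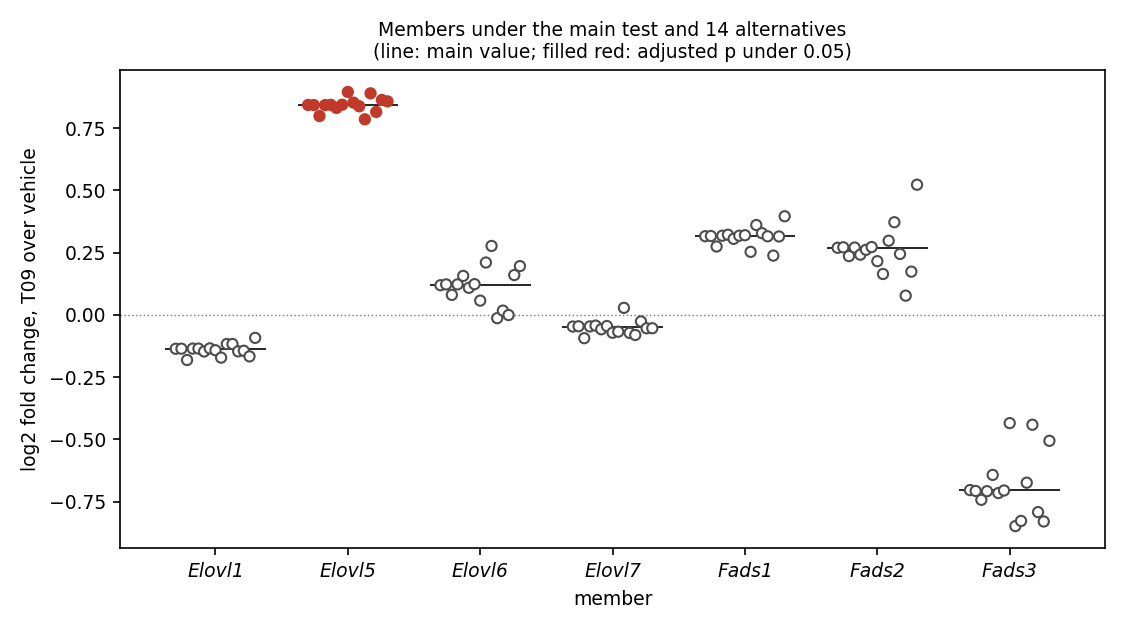
Log2 fold change of each tested member (y axis, T09 over vehicle) in the main test (black line) and under it and 14 alternatives (points), with filled red points at an adjusted p under 0.05. Elovl5 stays between 0.79 and 0.90 and red throughout, while Elovl6 and Elovl7 have points on both sides of 0 and Fads2 runs from 0.08 to 0.52.

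Levels of different genes can be compared only per length, and the length mattered here. The deposited FPKM of Elovl5, Elovl6 and Elovl1 were 2.50, 2.48 and 1.76 times what their counts, listed lengths and library totals give, whereas those of Elovl7 and the Fads genes were 1.00 times. On the authors' FPKM with vehicle, Elovl1 was highest at 89.3 ± 5.08 FPKM (SD, n = 4), then Elovl6 at 49.8 ± 14.4, Fads2 at 15.8 ± 2.98, Elovl5 at 14.8 ± 1.30, Elovl7 at 6.50 ± 0.643, Fads1 at 4.54 ± 0.426 and Fads3 at 1.79 ± 0.672. Of these neighbours only Fads2 and Elovl5 had ranges that overlapped. On CPM per kilobase of listed length the order began the same way, with Elovl1 at 50.1, Elovl6 at 19.8 and Fads2 at 15.6, but Elovl5 at 5.83 then stood after Elovl7 at 6.41. On that scale the vehicle ranges overlapped between Elovl6 and Fads2 and between Elovl7 and Elovl5.

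With T09, Elovl5 moved ahead of Fads2 in mean FPKM (25.7 ± 2.18 against 18.6 ± 6.96, SD, n = 3, ranges overlapping) and ahead of Elovl7 on CPM per kilobase (10.5 ± 0.388 against 6.21 ± 0.130, ranges apart). Of the summed FPKM of the 7 Elovl genes, Elovl5 took 8.10% to 10.9% with vehicle and 15.4% to 16.6% with T09. On the listed lengths these shares were 6.32% to 8.29% and 12.1% to 13.1%. Elovl1 remained the largest part on both scales, at 46.0% to 62.9% of summed FPKM over all libraries. Among the Fads genes, whose lengths agree between the scales, Fads2 took 67.0% to 76.1%.

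Whether members moved by unequal amounts was asked with 5 ratios of counts within a library, in which depth cancels. The test was an exact permutation test, two-sided, over all 35 ways to place the treatment labels, with a smallest possible p of 0.0286 and Benjamini-Hochberg adjustment over the 5. After adjustment, 1 ratio at that smallest p would stand at 0.143, and 3 ratios would have to reach it together to stand at 0.0476. The log2 ratio of Elovl5 to Elovl6 was -3.069, -3.266, -2.562 and -2.377 with vehicle and -2.295, -2.093 and -1.999 with T09. All T09 values were above all vehicle values, yet the difference of 0.69 had an exact permutation p of 0.0571 (adjusted 0.143) and did not pass. With that floor, a single pair could not pass however far apart its groups lay, so the test leaves equal and unequal responses undecided.

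For Fads3 to Fads2 the log2 ratio was -2.18, -2.55, -2.21 and -1.37 with vehicle and -3.15, -2.94 and -2.80 with T09. The groups did not overlap here either, and the difference of -0.89 (exact permutation p 0.0571, adjusted 0.143) did not pass. The ratio of Fads1 to Fads2, the last to the first desaturase of the pathway, differed by 0.09 (exact permutation p 0.771), Elovl1 to Elovl6 by -0.29 (exact permutation p 0.371) and Elovl7 to Elovl1 by 0.09 (exact permutation p 0.343). In T09 replicate 3 the Fads1 to Fads2 log2 ratio was -0.03 against -0.84 to -0.43 in the other 6 libraries, and without that library the difference was -0.14.

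**Figure D4:**
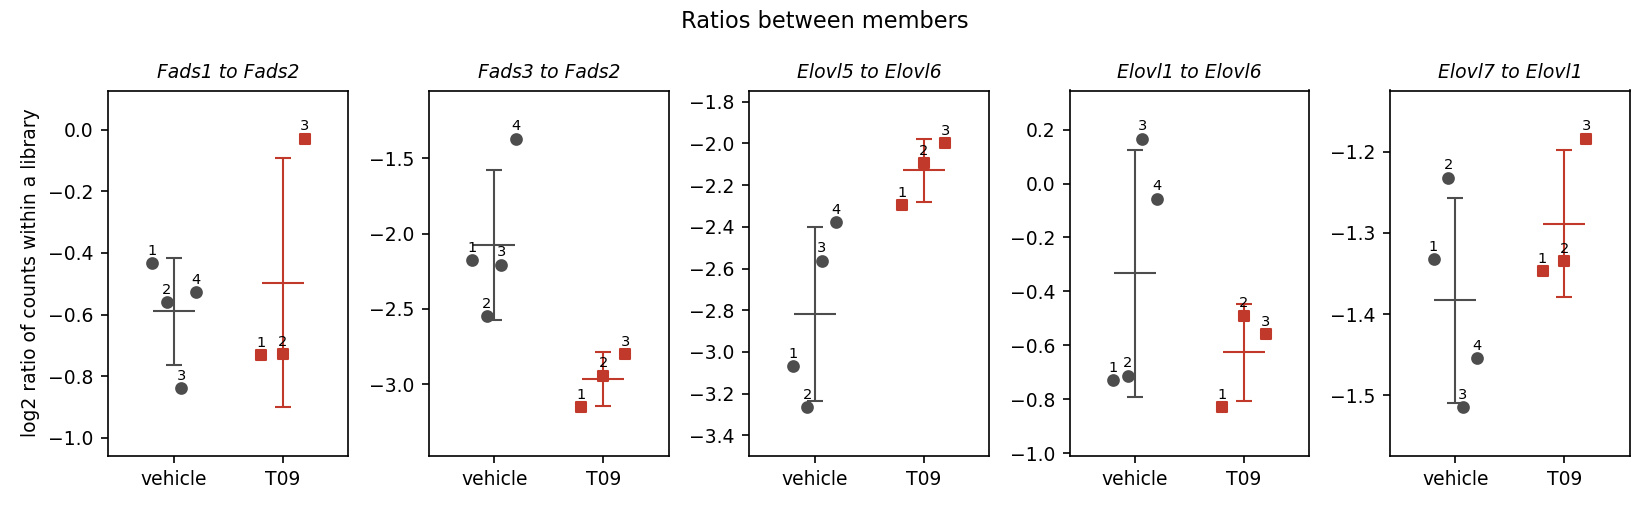
Log2 ratio of counts between paired members within each library (y axis, a separate range per panel), by treatment (x axis). Points are libraries numbered by replicate, with group means and 1 SD (vehicle n = 4, T09 n = 3). The T09 points lie above all vehicle points for Elovl5 to Elovl6 and below all of them for Fads3 to Fads2, and overlap them in the other 3 panels.

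The ELOVL step opens each round of elongation, and the genes of the later steps (ketoacyl reductase Hsd17b12, dehydratases Hacd1 to Hacd4, enoyl reductase Tecr) showed no call. Of the 7 genes listed for the cycle 6 were tested and 0 were called by edgeR, DESeq2 or limma-voom (1 at an unadjusted p under 0.05), with a median log2 fold change of 0.05. Over all 14250 genes tested the median was 0.02, 7537 genes lay above 0 and 17.9% had an unadjusted p under 0.05, which is the background for this and the following lists, beside the 4.31% called. Tecr was at 102 ± 5.44 CPM with vehicle and 111.5 ± 8.71 with T09 (log2 fold change 0.12, SE 0.09), and Hsd17b12 at 65.7 ± 7.72 and 69.05 ± 3.69 (log2 fold change 0.07, SE 0.11). Of the 7 genes listed for electron supply, cytochromes b5 and their reductases whether or not they serve desaturases, 6 were tested. By edgeR or limma-voom 0 were called, but 1 by DESeq2 and in 4 of the edgeR alternatives (1 at an unadjusted p under 0.05, median 0.18). That gene was Cyb5a, the main microsomal cytochrome b5, named after its values were seen. It was at 422 to 650 CPM with vehicle and 678 to 1080 CPM with T09, without overlap (log2 fold change 0.75, SE 0.18, edgeR adjusted p 0.0538, DESeq2 adjusted p 0.00127). By edgeR it was called with library size alone (adjusted p 0.0494), with no filter (0.0222), without vehicle replicate 2 (0.0406) and without T09 replicate 1 (0.0156). Cyb5b, at a mean of 1053 CPM with vehicle and 1209 CPM with T09, differed by 0.20 on the log2 scale (SE 0.11), and Cyb5r3, at 881 and 961 CPM, by 0.13 (SE 0.11).

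Downstream, 2 of 9 tested genes for release and reacylation of polyunsaturated chains rose and 0 fell (4 at an unadjusted p under 0.05; median 0.16). They were Lpcat3, described above, and Acsl3, an acyl-CoA synthetase of lipid droplets and the endoplasmic reticulum. Acsl3 went from 15.4 to 24.5 CPM with vehicle to 47.1 to 92.3 CPM with T09 (log2 fold change 1.77, SE 0.23, edgeR adjusted p 0.00392). Both were called in every alternative.

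The last step to docosahexaenoate is a round of peroxisomal shortening, and of 9 genes listed for it 8 were tested, 3 rose and 0 fell (7 at an unadjusted p under 0.05). All 8 tested had a log2 fold change above 0, with a median of 0.42. Abcd2, not tested, went the other way, with 8, 8, 9 and 52 counts with vehicle and 5, 3 and 0 with T09. Hsd17b4, the D-bifunctional protein, was at 304 to 361 CPM with vehicle and 481 to 647 CPM with T09 (log2 fold change 0.81, SE 0.13, edgeR adjusted p 0.00837). Abcd3, a peroxisomal acyl-CoA importer, went from 253 to 343 CPM to 388 to 566 CPM (by 0.74 on the log2 scale, SE 0.15, adjusted p 0.0281 by edgeR). Ehhadh, the L-bifunctional protein, went from 165 to 238 CPM to 294 to 339 CPM (by 0.65, SE 0.13, adjusted p 0.0265 by edgeR). The list's count was 1 without vehicle replicate 3, vehicle replicate 4, T09 replicate 2 or T09 replicate 3, and 5 without T09 replicate 1 or with DESeq2. These genes also serve general peroxisomal oxidation. Ppara, the receptor that governs it, was at 27.5 to 35.8 CPM with vehicle and 90.5 to 115.5 CPM with T09. The part of Ppara in the values of these genes was not tested.

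Of the ceramide synthases and the glucosylceramide synthase Ugcg, which use elongated chains, 5 of 7 were tested and 0 called by edgeR, DESeq2 or limma-voom (0 at an unadjusted p under 0.05; median 0.11). Cers2, the synthase of very-long-chain ceramides, was at 139 to 156 CPM with vehicle and 155 to 159 CPM with T09 (0.11 on the log2 scale, SE 0.08). Ugcg was at 177 to 260 CPM and 198 to 329 CPM (0.30, SE 0.18).

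**Figure D5:**
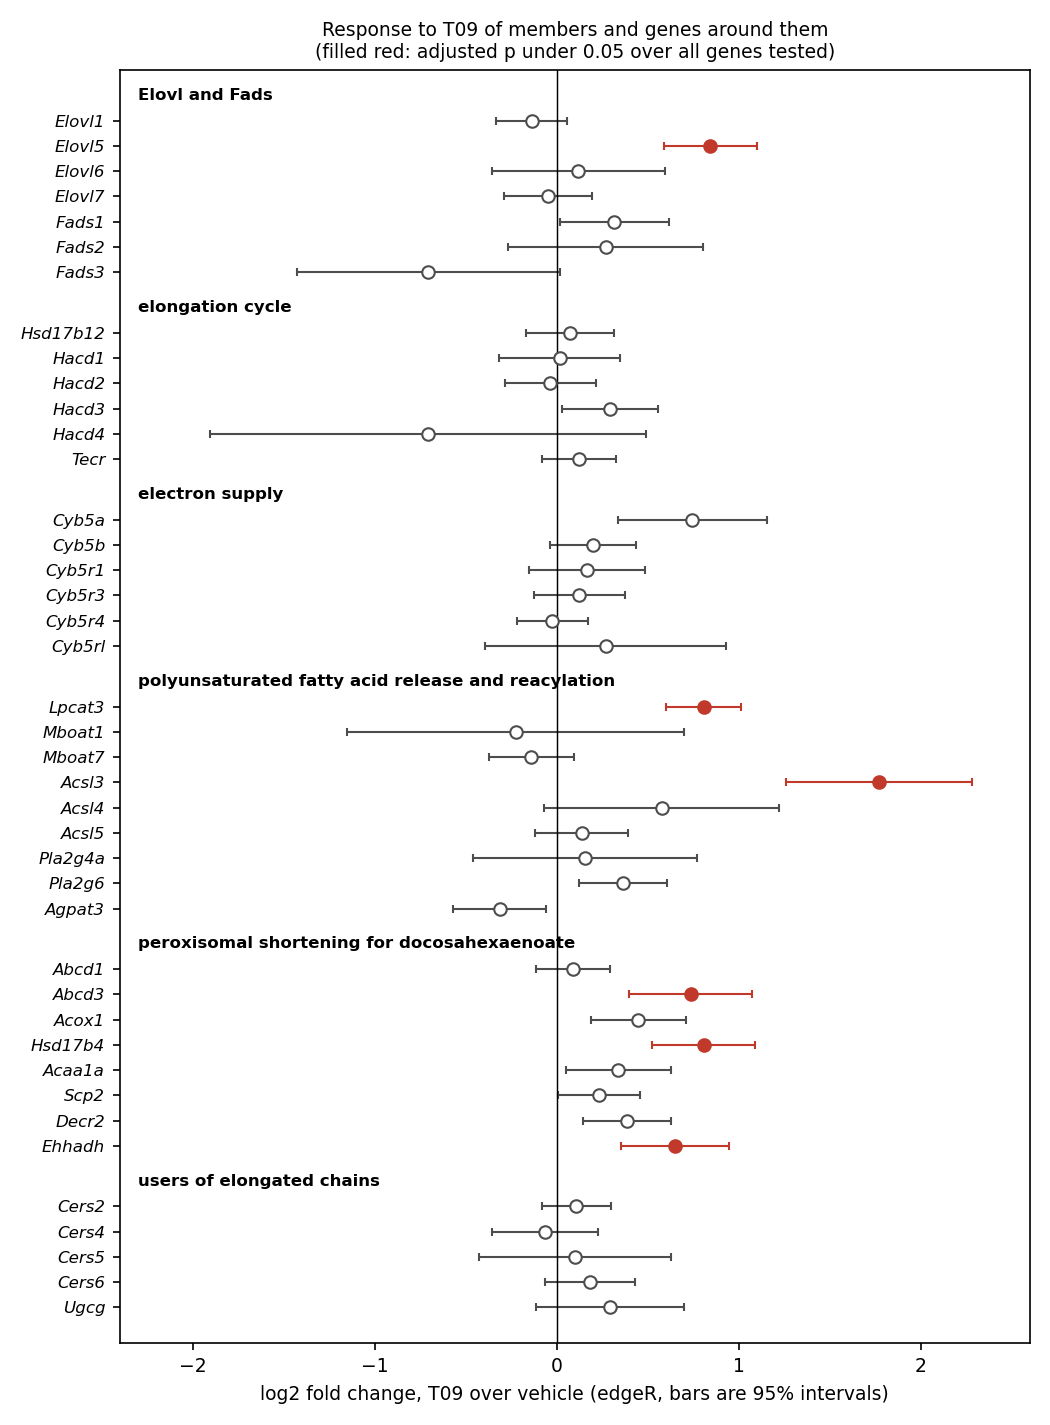
Log2 fold change, T09 over vehicle (x axis), with 95% intervals, of the tested members and of tested genes of 5 lists around them (y axis). Filled red points passed an adjusted p under 0.05 over all genes. Elovl5 at 0.84, Lpcat3 at 0.81 and Hsd17b4 at 0.81 lie close together, Acsl3 at 1.77 lies farthest to the right, and no point passed the test to the left of 0.

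Of the 12 regulators of this pathway, all tested, 3 rose and 0 fell (5 at an unadjusted p under 0.05; median 0.05). The 3 were Srebf1, Ppara and Insig1. The other 2 of those 5 had negative values and were not called, and are named after their values were seen: Ppard, a PPAR of broad expression, at -0.72 without overlap (SE 0.20, edgeR adjusted p 0.0845), and Srebf2, the SREBP gene of cholesterol synthesis, at -0.30 with overlap (SE 0.12, edgeR adjusted p 0.232). Srebf1 was at 116.5 to 179 CPM with vehicle and 1134 to 1271 CPM with T09, so that every T09 library held far more than any vehicle library. Ppara, given above, rose by 1.70 on the log2 scale (SE 0.12, adjusted p 2.65e-04 by edgeR). Insig1, which retains SREBP in the endoplasmic reticulum, rose by 0.58 (SE 0.13, adjusted p 0.0359 by edgeR), a call lost in 7 of 14 alternatives. Beside that rise in Srebf1, the textbook SREBP-1 targets among the members had log2 fold changes of 0.84 (Elovl5), 0.32 (Fads1), 0.27 (Fads2) and 0.12 (Elovl6). Among other acyl desaturases, 1 of 5 tested was called, Scd2, at 12.5 to 25.0 CPM with vehicle and 389 to 582 CPM with T09 (4.85 on the log2 scale, SE 0.25). Scd1 was at 7.57, 14.3, 52.3 and 503 CPM with vehicle and 2497, 4105 and 4480 CPM with T09, and was not called by edgeR (adjusted p 0.0735). Other settings called it, namely DESeq2 (adjusted p 0.00856), limma-voom (0.0179), and edgeR with no filter (adjusted p 0.0151), under the replicate block (adjusted p 0.00141) and without vehicle replicate 4 (adjusted p 0.00629). The block also takes nothing from vehicle replicate 4 for its treatment estimate, so those last settings are not separate checks. Fasn, which supplies the palmitate that ELOVL6 extends, was at 23.6, 36.2, 60.6 and 257 CPM with vehicle and 46.6, 40.3 and 36.4 CPM with T09. Vehicle replicate 4 thus held the most Scd1, Fasn, Scd2 and Fads3 of the vehicle libraries, and next to the least Elovl6.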

How the data were processed

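Polyadenylated RNA was made into randomly primed libraries, per the labels' protocols. The authors deposited raw read counts and FPKM per Ensembl gene, per the file headers. Tools named in the submitters' processing notes, with no role given, are DESeq 1.18.0, HTSeq 0.6.1, Bowtie2 2.2.3 and TopHat2 2.0.12. The sources used here do not give the genome build, the strand setting or the handling of shared reads; 46429 of 47069 genes overlapped their GENCODE M21 gene, so coordinates are on GRCm38. FPKM served for levels only.

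Counts were tested with edgeR 4.0.16 in R 4.3.3 (filterByExpr, TMM, glmQLFit, glmQLFTest, Benjamini-Hochberg adjustment over 14250 genes, called under 0.05). SE is the log2 fold change over the square root of F. Log2 ratios and patterns used a prior count of 0.5. The edgeR, limma-voom and DESeq2 fits, without the block, were tested on simulated data. P-values of the fits weigh the group difference against the spread between mice. Those of the ratios rank the difference among all placements of the treatment labels. Alternatives were DESeq2 1.42.0, limma-voom (limma 3.58.1), other scalings and filters, a replicate block and leaving out each library. The members, gene lists and motifs were chosen with earlier results of these data known. Named genes were the members, 5 index genes (Srebf1, Scd1, Scd2, Lpcat3, Fasn) and genes of each list. Of each list these were the called genes (at most 4 for most lists) or else its 2 most abundant. The 3 nearest patterns of each called member were also named. Cyb5a, Ppard, Srebf2, Abcd2 and the marker genes named were added after their values were seen. No column was left unmatched to a library. Promoter windows are RefSeq's, without the 50 bases after the start. Library depth, given in the report, limits the precision of low counts, and intervals on counts cover counting error only.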

Additional observations from a re-analysis of the deposited data

Results flagged for a closer look

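In 45 sets of 4 vehicle values (members, other named genes, ratios and marker shares), the highest or lowest library was set apart from the others, by a gap to its nearest neighbour above Dixon's critical share of the range, in 4; about 1 in 20 is set apart by chance, or 2.25 of 45. Elovl7 stood at 40.3 CPM in vehicle replicate 2, with the next vehicle library at 33.4. Scd1 was at 503 CPM and Fasn at 257 CPM in vehicle replicate 4, with the next at 52.3 and 60.6. Pancreatic acinar markers took 0.078% of counts in vehicle replicate 1, with the next at 0.00136%. These sets are not independent, since they come from the same 4 libraries.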

How the results depend on the processing

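The number of members called was 1 under all 14 alternatives, and the member was Elovl5 each time. The number of genes called in the whole table, 614, was 1091 with DESeq2, 290 with the replicate number as a block, and 251 to 819 over the 7 sets that drop 1 library (280 and 285 on dropping vehicle replicate 3 or 4, 303 and 251 on dropping T09 replicate 2 or 3). Changes of sign, all in values that were not called, were those of Elovl6 (-0.0132 to 0.277 on dropping 1 library, lowest without vehicle replicate 3, and -6e-04 without T09 replicate 1), Elovl7 (-0.0807 to 0.0284, highest without vehicle replicate 2) and Fasn (-1.53 to 0.0344, highest without vehicle replicate 4, and 0.1306 with the replicate block, against -1.20 as first tested). The Fads1 to Fads2 difference ran from -0.14 to 0.21 over the libraries left out. The cause was not tested. The other 4 ratio differences kept their sign in all 8 alternatives; leaving out a library raises the smallest p the permutation test can give. The replicate numbers were not taken as pairs, since the labels do not state that they pair mice. Vehicle replicate 4 has no same-numbered T09 library, so the block in effect leaves it out of the treatment estimate. Deviations from the group means of same-numbered libraries correlated at 0.241, 0.024 and -0.022 over genes, which does not settle whether they do. Under the block, Elovl5 was at 0.90 (edgeR adjusted p 0.0234), and Insig1, Ehhadh, Abcd3 and Frrs1 lost their calls. The 95% intervals of Fads2 and Fads3 included 0, and that of Fads1 did not, before adjustment; low counts limit what can be said of Elovl2, Elovl3 and Elovl4.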
